A study of Mus musculus with 6 samples.

Results

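The genes described here are 30 genes of the ocular lens, 16 crystallins and 14 genes of lens fibre structure, membrane, metabolism and regulation, chosen by symbol from the 54532 genes listed for 6 mouse retina libraries. All pups had oxygen-induced retinopathy, a model in which high oxygen stunts the retinal vasculature and new vessels form after the return to room air. They entered 75% ± 2% oxygen on postnatal day 7 and received 1 nmol of oligonucleotide into the vitreous on day 12, either miR-381-3p antagomir, an antisense inhibitor of that microRNA, or antagomir nc, the negative control. Retinas were taken on day 17, with 3 libraries per group, named below antagomir 1 to 3 and control 1 to 3. Strain and sex are not in the labels, nor do they say whether each library came from 1 animal. Levels are in FPKM, fragments scaled to gene length and to a library total, so they can be compared between genes. The antagomir columns were recognised only because their heading is not that of the controls, and every direction rests on that reading.

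Crystallins are the water-soluble proteins that fill lens fibre cells and give the lens its refractive power. The alpha crystallins are small heat shock proteins that keep other proteins from aggregating, while the beta and gamma crystallins are related structural proteins. Beaded filaments, a channel-forming water protein and connexins complete the fibre cell. Alpha B crystallin is also made outside the lens, in glia and muscle among other tissues, and alpha, beta and gamma crystallins have been described in injured retina. In rodents, expression of gamma A to F crystallins belongs mainly to fibres laid down before and soon after birth, and beta B2 and gamma S crystallins accumulate later, in the outer fibres.

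Promoters are shown first because their sequence is a feature that the gene names do not give. Any part of theirs in the levels described below was not tested. RefSeq promoters on GRCm38.p6 were matched for 27 of the 30 genes, all but Cryab, Maf and Hsf4. Each line below gives the 120 bases before the annotated start, 5′ to 3′. The core of a Maf recognition element (TGCTGAC) and TATA boxes (TATAAA or TATATA) are in capitals. Shown are 5 gamma crystallin genes from chromosome 1 (Crygc is left out) and 3 other crystallin genes. Those 3 are the only crystallin promoters matched with TGCTGAC within these 120 bases, so they do not stand for the rest. Cryba4 and Cryga held it only farther upstream. Cryba2, Crybb2, Crybb3, Crygb, Crygc, Crygd, Cryge, Crygf, Crygs and Crygn did not hold it anywhere in the window searched.
Cryga, chr1:65103364-65103483, minus strand: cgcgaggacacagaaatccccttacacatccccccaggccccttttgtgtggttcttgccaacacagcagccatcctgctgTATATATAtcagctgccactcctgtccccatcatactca
Crygb, chr1:65082291-65082410, minus strand: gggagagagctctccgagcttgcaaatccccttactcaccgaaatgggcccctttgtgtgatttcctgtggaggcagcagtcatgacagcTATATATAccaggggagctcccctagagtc
Crygd, chr1:65063441-65063560, minus strand: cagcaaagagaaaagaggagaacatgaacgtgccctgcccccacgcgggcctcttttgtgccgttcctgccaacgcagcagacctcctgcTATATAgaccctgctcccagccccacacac
Cryge, chr1:65051164-65051283, minus strand: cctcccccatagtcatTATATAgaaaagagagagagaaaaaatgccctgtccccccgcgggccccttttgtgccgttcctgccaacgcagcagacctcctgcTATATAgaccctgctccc
Crygf, chr1:65926402-65926521, plus strand: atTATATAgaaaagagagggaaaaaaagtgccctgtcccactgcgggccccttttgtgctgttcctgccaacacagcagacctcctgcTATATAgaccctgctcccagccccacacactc
Cryaa, chr17:31677811-31677930, plus strand: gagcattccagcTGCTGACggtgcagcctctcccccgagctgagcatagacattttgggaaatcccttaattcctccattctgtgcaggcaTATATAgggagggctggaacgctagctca
Cryba1, chr11:77725294-77725413, minus strand: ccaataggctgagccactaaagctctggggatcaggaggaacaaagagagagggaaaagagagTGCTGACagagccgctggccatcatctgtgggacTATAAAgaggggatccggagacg
Crybb1, chr5:112255700-112255819, plus strand: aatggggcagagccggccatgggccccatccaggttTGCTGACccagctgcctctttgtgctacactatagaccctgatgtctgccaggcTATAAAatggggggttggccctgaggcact

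The promoters of Crygd and Cryge shared an unbroken run of 56 bases, and those of Crygd and Crygf one of 45 bases. After alignment, 87.5% of these 120 bases were identical between Crygd and Crygf and 57.5% between Crygb and Crygf, the most and the least alike of the 15 pairs among gamma A to F. On either strand of windows from 250 bases before to 50 after the start, TGCTGAC occurred in 22.2% of the 27 lens promoters and in 4.58% of 27025 promoters of all genes. The TATAAA box occurred in 25.9% of the lens promoters and in 14.2% of all. TATATA, searched only after these sequences had been seen and overlapping itself in Cryga and Crygb, occurred in 29.6% against 5.94%. The heat shock element core GAANNTTC was held by 7.41% of the lens promoters, those of Dnase2b and Lenep, and by 7.95% of all. It was in 0 of the 21 promoters of genes given the lens pattern below. These matches describe letters in a window and not bound sites.

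Lens transcript was abundant in 3 of the 6 libraries and close to absent in the others. A gene was given the lens pattern when its highest library reached 1 FPKM and its highest value exceeded its lowest by 10 times or more, with 0.1 FPKM added to both. This description fitted 21 of the 30 genes, among them 15 of the 16 crystallins. Of the 30 genes, 24 reached 1 FPKM in some library, so the share of those able to qualify was 21 of 24. By the same rule, 1070 of 16949 other genes that reached 1 FPKM in some library qualified (6.31%), and for 51 of those 1070 antagomir 1, control 2 and control 3 held the 3 highest values. The rule alone therefore does not mark lens genes: Edn2, a gliosis gene, met it with its highest value in antagomir 2, and Optc and Tyrp1, genes of neighbouring tissues, with theirs in control 2. The summed level of the 21 was 918 FPKM in antagomir 1, 20.8 in antagomir 2 and 6.03 in antagomir 3, and 8.69 in control 1, 1587 in control 2 and 780 in control 3. High and low libraries thus lay inside both groups. In a bulk sample, more lens cells and more lens RNA per cell cannot be told apart.

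In reads, the 21 genes took 0.206% of all assigned reads in control 2 (95% Wilson interval 0.203% to 0.208%) and 0.000963% in antagomir 3 (0.000825% to 0.00113%). Intervals here and below cover counting error only. Even in control 2 the lens share was therefore a small part of a retinal library. Assigned reads per library ranged from 13727596 to 16502352. Retinal transcript was abundant in all 6 libraries, with the rod transducin gene Gnat1 between 2250 and 2528 FPKM. All 21 genes had their 3 highest values in antagomir 1, control 2 and control 3, and 18 of them were highest in control 2.

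**Figure D1:**
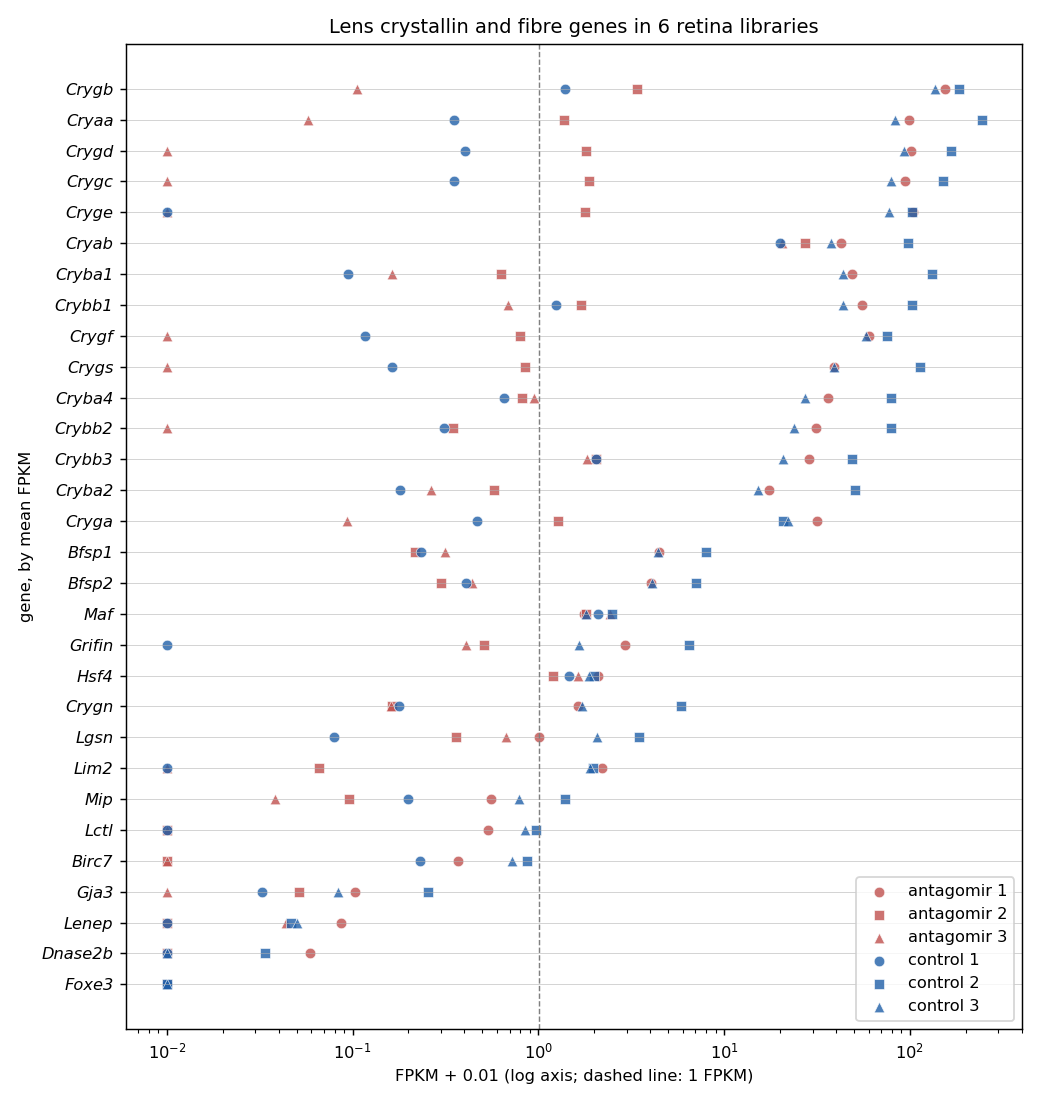
Level of each of the 30 genes (rows, ordered by mean) in each library (FPKM + 0.01, log axis), with antagomir libraries in red, controls in blue and symbols for the replicate. Crystallins with the lens pattern lie between 15.2 and 244 FPKM in antagomir 1, control 2 and control 3, Crygn apart, and at most at 3.39 FPKM in the other libraries, while Cryab, Maf and Hsf4 stay at or above 1 FPKM everywhere.

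Among the alpha crystallins, Cryaa (ENSMUSG00000024041, chr17:31677933-31681724 in GRCm38, plus strand), the lens chaperone, had the highest single value of all 30 genes. It stood at 99.03, 1.37 and 0.0474 FPKM in antagomir 1, 2 and 3 and at 0.342, 244 and 82.9 FPKM in control 1, 2 and 3. The low end was 2 reads in antagomir 3 and 13 in control 1, against 9481 in control 2. Cryab (ENSMUSG00000032060, chr9:50751325-50756636, plus strand), its stress-inducible relative, behaved otherwise. It was at 42.6, 27.3 and 20.5 FPKM in the antagomir libraries and at 19.9, 97.9 and 37.5 FPKM in the controls, and never fell below 438 reads. Its highest value was 4.90 times its lowest by the measure above, against 1656 times for Cryaa.

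Cryab was therefore also set against Cryaa, library by library. The ratio of Cryab to Cryaa in FPKM was 0.431 (95% exact interval 0.400 to 0.463) in antagomir 1, 0.401 (0.383 to 0.420) in control 2 and 0.453 (0.418 to 0.491) in control 3. It was 19.9 (15.2 to 26.6) in antagomir 2 and 58.2 (33.7 to 110) in control 1. This raw ratio was thus nearly constant where lens transcript was abundant, and far higher where Cryaa was scarce. It includes the Cryab that was present where Cryaa was scarce. Taken above its level in antagomir 3, Cryab was less even. It then rose per 100 FPKM of Cryaa by 22.4 FPKM in antagomir 1, 20.6 in control 3 and 31.7 in control 2. Cryab did not go with Cryaa alone: in antagomir 2, with 1.37 FPKM of Cryaa, its exact Poisson interval (25.2 to 29.4 FPKM) lay above those of antagomir 3 (18.7 to 22.3) and control 1 (18.1 to 21.9).

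The 6 beta crystallins all had the lens pattern and all were highest in control 2. Cryba1, which encodes the beta A3 and A1 proteins, ran from 0.0843 FPKM in control 1 to 132 in control 2. Crybb2 was listed at 0 in antagomir 3 and reached 78.9 FPKM in control 2, at least 873-fold higher than the 3 reads that a count of 0 allows in 1 library. Crybb1 and Cryba4 lie head to head on chromosome 5, 3296 bases apart. Both had their 3 highest values in antagomir 1, control 2 and control 3, as all 21 genes with the lens pattern did. Crybb1 was at 55.4, 1.68 and 0.677 FPKM in the antagomir libraries and at 1.23, 103 and 43.6 FPKM in the controls. Cryba4 was at 36.1, 0.807 and 0.941 FPKM and at 0.642, 79.7 and 27.4 FPKM, respectively. Cryba2 spanned 0.169 to 50.9 FPKM.

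Crybb3 (ENSMUSG00000029352, chr5:113075839-113081584, minus strand) combined both behaviours. It reached 28.6 FPKM in antagomir 1, 49.2 in control 2 and 20.8 in control 3, and still held 2.03, 1.82 and 2.05 FPKM in antagomir 2, antagomir 3 and control 1. Those 3 low values came from 77, 70 and 71 reads and lay within each other's exact Poisson intervals, which ran from 1.42 to 2.58 FPKM overall. Its ratio to Cryaa was 0.289 (95% exact interval 0.269 to 0.310) in antagomir 1 and 5.98 (3.29 to 11.8) in control 1. Crybb3 was the 1 gene of the 21 with at least 1 FPKM in every library. Reads that did not fall with Cryaa were not particular to it. From antagomir 2 to antagomir 3, Cryaa fell from 57 to 2 reads, while Cryba4 went from 11 to 13. The beaded filament genes Bfsp1 and Bfsp2 each went from 8 to 12, but Crybb1 fell from 27 to 11 and Crybb2 from 11 to 0.

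The gamma A to F crystallins, encoded by 5 genes within 54820 bases of chromosome 1 and by Crygf farther along it, gave the largest part of the summed lens level in antagomir 1, antagomir 2, control 2 and control 3. Crygb led them, at 154, 3.39 and 0.0956 FPKM in the antagomir libraries and 1.38, 185 and 137 FPKM in the controls. Crygd, Crygc, Cryge and Crygf were listed at 0 in antagomir 3 and lay between 75.1 and 167 FPKM in control 2. Crygd was at least 941-fold higher in control 2 than 3 reads in antagomir 3 would be. Cryga was the lowest of them in the 3 lens-rich libraries, at 31.8 FPKM in antagomir 1, 20.6 in control 2 and 22.2 in control 3. Split counting may touch these levels: of the 100-base windows in their GENCODE M21 transcripts, 37.97% in Cryga were shared with the overlapping gene Gm28845, 22.8% in Crygb with Crygc, and 22.6% in Cryge with Crygd or Crygf. Gm28845 itself was listed at 0 in every library.

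Crygs, the gamma crystallin of outer fibres, followed the same libraries, at 38.9, 0.843 and 0 FPKM in the antagomir group and 0.154, 113 and 38.9 FPKM in the controls. None of its windows was shared with another gene. Crygn, a distant member of the gamma family, was far lower. It was at 5.83 FPKM in control 2, 1.71 in control 3 and 1.63 in antagomir 1, and between 0.151 and 0.168 FPKM, or 2 reads each, in the others.

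Structural and membrane genes of the fibre cell were much scarcer than crystallins. The beaded filament genes Bfsp1 and Bfsp2, which encode filensin and phakinin, peaked at 7.98 and 7.05 FPKM in control 2. In antagomir 2, antagomir 3 and control 1 they were between 0.206 and 0.428 FPKM, from 8 to 12 reads. Lim2, which encodes a fibre membrane protein, was at 2.20 FPKM in antagomir 1, 1.96 in control 2 and 1.89 in control 3. It was listed at 0 in antagomir 3 and control 1. Mip, the gene of the lens water channel aquaporin 0, was at 1.38 FPKM in control 2 and only 0.545 in antagomir 1. The connexin 46 gene Gja3 stayed under 0.245 FPKM in every library, with 21 reads in all.

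Mip was also the gene closest to the limit of the pattern from inside, with a ratio of 11.5, followed by Bfsp2 with 18.4. From outside, Lctl, a klotho-family gene of lens, had a ratio of 10.6 but missed the level, with 0.960 FPKM in control 2. Birc7, an apoptosis inhibitor gene, had a ratio of 9.59 and reached 0.859 FPKM. Both still had their highest values in the libraries rich in crystallins. Lctl had 20 reads in antagomir 1, 38 in control 2 and 30 in control 3, and was listed at 0 in antagomir 2, antagomir 3 and control 1.

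Grifin, which encodes a lens galectin relative, was at 6.44 FPKM in control 2, 2.92 in antagomir 1 and 1.65 in control 3, against 0 to 0.501 FPKM elsewhere. Lgsn, which encodes the lens protein lengsin of the glutamine synthetase superfamily, departed from the crystallins. It was at 0.994, 0.349 and 0.657 FPKM in antagomir 1, 2 and 3 and at 0.0694, 3.46 and 2.05 FPKM in the controls. Antagomir 3 thus held 21 Lgsn reads beside 2 Cryaa reads, and antagomir 1 held 28 beside 3681. The Lgsn level in antagomir 3 relative to antagomir 1 was 0.661 (95% exact interval 0.357 to 1.21), whereas that of Cryaa was 0.000479 (5.80e-05 to 0.00173).

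Of the remaining low genes, Dnase2b, the nuclease that degrades DNA as fibres lose their nuclei, had 3 reads in all. Lenep had 5 reads, and 99.1% of its windows lie in transcripts of Flad1, so its level is uncertain. Foxe3, a transcription factor of the lens epithelium, had 0 reads in every library, where the limit of 3 reads corresponds to at most 0.25 FPKM.

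The other regulators were present in every library and differed far less than the crystallins. Maf, a bZIP factor that drives fibre differentiation in the lens and is also made in other cells, was at 1.74, 1.80 and 2.43 FPKM in the antagomir libraries and at 2.10, 2.49 and 1.80 FPKM in the controls. Its exact Poisson intervals overlapped between antagomir 3 and control 2, where Cryaa differed most, but not between antagomir 1 (1.52 to 2.00 FPKM) and control 2 (2.22 to 2.78 FPKM), both rich in crystallins. Hsf4, a heat shock factor needed for lens fibres, was at 2.08, 1.19 and 1.63 FPKM in the antagomir libraries and at 1.46, 1.99 and 1.86 FPKM in the controls. Its values rested on 34 to 53 reads per library and their intervals all overlapped. The highest value was 1.43 times the lowest for Maf and 1.74 times for Hsf4.

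**Figure D2:**
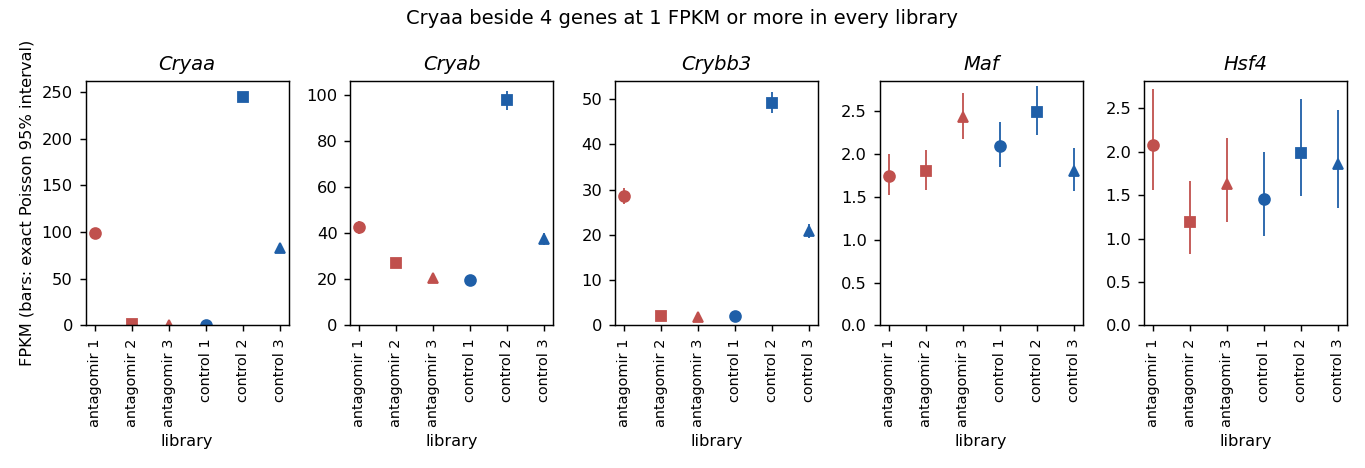
FPKM of Cryaa and of the 4 genes at 1 FPKM or more in every library, in each of the 6 libraries, with exact Poisson 95% intervals from the reads. Cryab and Crybb3 rise with Cryaa from levels near 20 and 2 FPKM, as low as 19.9 and 1.82, while Maf and Hsf4 stay between 1.19 and 2.49 FPKM.

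The make-up of the lens signal differed between libraries. Gamma A to F crystallins gave 59.4% of the summed FPKM of the 21 genes in antagomir 1, 59.8% in control 3 and 44.2% in control 2. Cryaa gave 10.8%, 10.6% and 15.4%, and the beta crystallins 23.7%, 22.4% and 31.1%, respectively. Crygs gave 4.24%, 4.99% and 7.13%. Control 2 therefore held relatively more alpha A, beta and gamma S and relatively less gamma A to F than the other lens-rich libraries, which resembled each other. In antagomir 3, where the 21 genes had 159 reads, gamma A to F made up 2.96%, from 2 reads, and the beta crystallins 63.7%, with 70 of the reads on Crybb3. Antagomir 2, with 394 reads, held 52.4% gamma A to F.

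**Figure D3:**
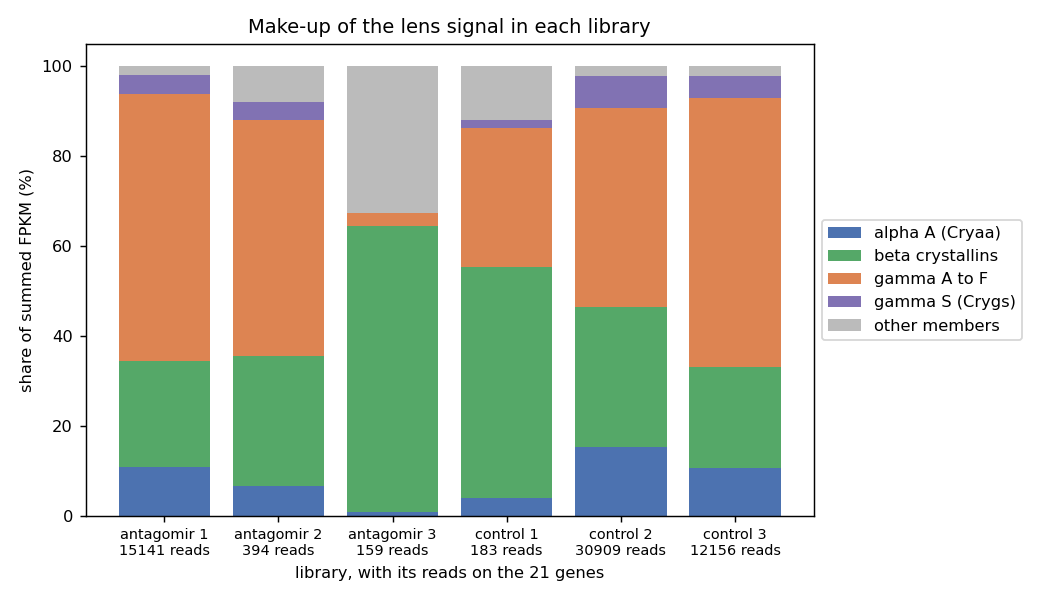
Share of the summed FPKM of the 21 lens-pattern genes (percent, stacked bars) taken by each crystallin class in each library, with the number of reads behind each bar. Gamma A to F fill 59.4% and 59.8% of antagomir 1 and control 3 and 44.2% of control 2, and the bars of antagomir 3 and control 1 rest on 159 and 183 reads.

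Gene by gene, control 2 did not simply hold more of the same mixture. Relative to antagomir 1, its levels were 2.91 times as high for Crygs (95% exact interval 2.62 to 3.22), 2.54 for Crybb2 (2.35 to 2.74) and 2.46 for Cryaa (2.37 to 2.56). They were 1.20 times as high for Crygb (1.12 to 1.29), 0.993 for Cryge (0.913 to 1.08) and 0.648 for Cryga (0.546 to 0.769). Cryga was thus lower in the library in which nearly every other lens gene was highest. Of the 21 ratios, 18 had intervals above 1, 1 below and 2 across it. Against control 3, control 2 also held 2.91 times as much Crygs (2.62 to 3.23) and 0.930 times as much Cryga (0.770 to 1.12). The ratio of Crygs to Cryga was 1.22 (1.06 to 1.41) in antagomir 1, 1.75 (1.49 to 2.07) in control 3 and 5.48 (4.77 to 6.32) in control 2.

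Control 3 and antagomir 1 lay closer together. Their ratio had a median of 0.870 over the 21 genes, with 11 intervals below 1, 9 across it and 1 above. The gene above was Lgsn, at 2.07 times its level in antagomir 1 (1.29 to 3.38). The median ratio of control 2 to antagomir 1 was 1.87, and that of antagomir 2 to antagomir 1 was 0.0255. These ratios compare libraries and not treatments.

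**Figure D4:**
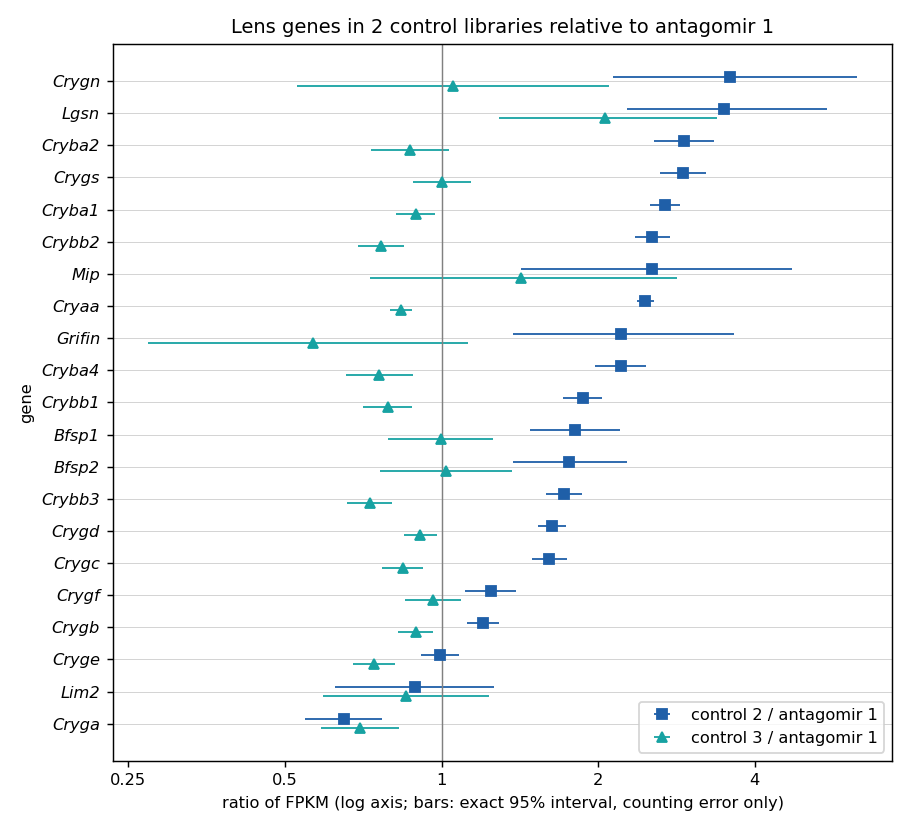
Ratio of FPKM in control 2 and in control 3 to antagomir 1 for the 21 lens-pattern genes (log axis), ordered by the control 2 ratio, with exact 95% intervals for counting error. Control 2 runs from 0.648 for Cryga to 3.58 for Crygn, while control 3 stays near 0.870 for most genes.

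Between the treatment groups, no lens gene passed the test. Limma was run on log2(FPKM + 1) over the 17453 genes with a mean of at least 0.5 FPKM, which 24 of the 30 genes reached. None of the 24 had an adjusted p under 0.05, as was true of 0 of all genes tested (0% called). Limma with voom on reads rebuilt from FPKM called 1 gene of all, Fxyd6, and 0 of the 24. At an unadjusted p under 0.05 there were 0 of the 24, where 6.20% of all genes were called. Without control 1 this count was 7 of 24, against 1166 of 17465 genes, and 0 lens genes passed after adjustment. The groups overlapped for each of the 24, where 12% of all genes had groups without overlap. The log2 fold change on that scale, antagomir over control, was below 0 for all 24 (median -1.41, from -2.26 for Cryaa to -0.067 for Maf). Over all genes the median was 0.0013, and 50.5% were above 0. The 24 signs are not separate observations, since most of these genes were high together in antagomir 1, control 2 and control 3.

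The spread behind those differences was wide. Cryaa averaged 33.5 ± 56.8 FPKM in the antagomir group and 109 ± 124 in the controls (SD, n = 3), with a log2 fold change of -2.26 (SE 2.34, adjusted p = 0.900 by limma). The standard errors of the 24 had a median of 1.55, against 0.106 over all genes. Cryab averaged 30.1 ± 11.4 against 51.8 ± 40.9 FPKM (SD, n = 3), with a log2 fold change of -0.53 (SE 0.55, adjusted p = 0.901 by limma). Adjusted p over the 24 ran from 0.818 for Mip to 0.951 for Maf. Without control 2 the median of the tested lens genes was -0.41, and the Cryab change became 0.070. Without control 1 or antagomir 1 the median was -2.76 or -2.83, and without antagomir 3 it was -0.61. With antagomir 1, control 2 and control 3 all left out (2 libraries against 1, a fit chosen once the values were known), the median of the 12 genes still tested was 0.15.

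The intervals were narrow only for the regulators. The 95% limma interval of Maf ran from -0.39 to 0.25 and that of Hsf4 from -0.45 to 0.28, while that of Cryaa ran from -7.84 to 3.31. Maf averaged 1.99 ± 0.380 against 2.13 ± 0.347 FPKM and Hsf4 1.63 ± 0.444 against 1.77 ± 0.277 FPKM (SD, n = 3).

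**Figure D5:**
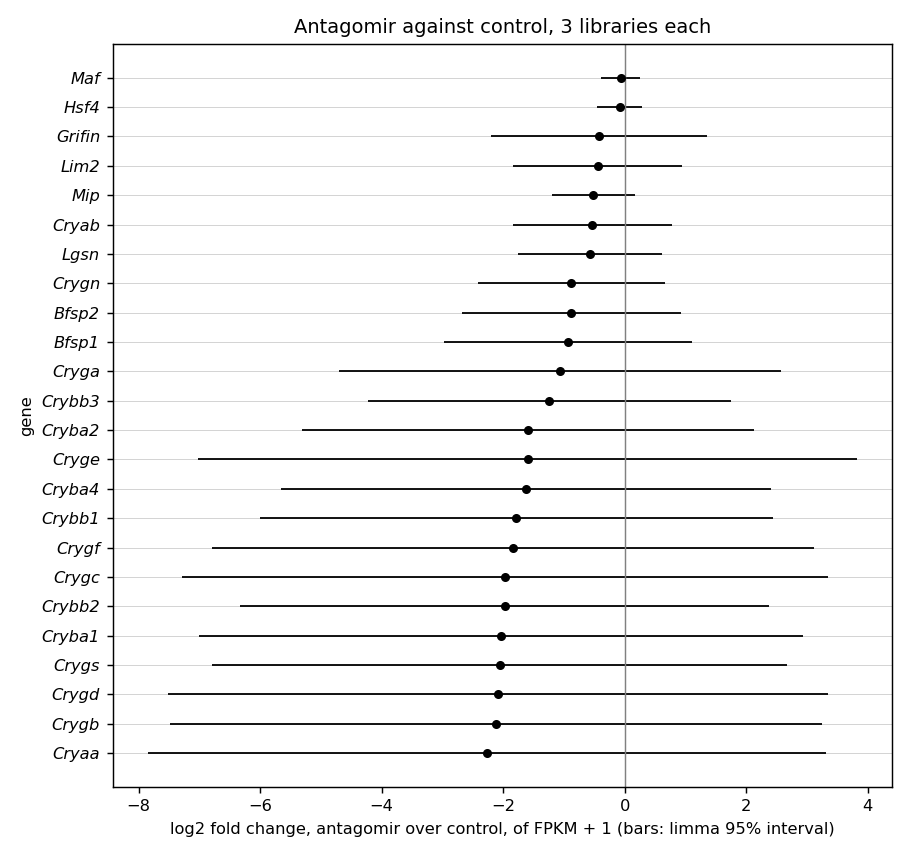
Log2 fold change of FPKM + 1, antagomir over control, for the 24 tested lens genes with 95% limma intervals. Every interval spans 0, from Cryaa (-7.84 to 3.31) to Maf (-0.39 to 0.25).

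Other genes known from the lens lay on both sides of 0 between the groups. Of 18 listed, 12 were tested, 7 higher and 5 lower (median log2 fold change 0.061), and 0 passed. The most abundant, Tdrd7, an RNA granule gene linked to cataract, ranged from 87.7 to 113 FPKM with its lowest value in control 2. Chmp4b, of the membrane-sorting ESCRT machinery, ranged from 55.5 to 63.8 FPKM, and the autophagosome transport gene Fyco1 from 49.01 to 56.5 FPKM. The gap junction gene Gja1, of lens epithelium and of glia, was at 4.32 FPKM in control 2 and at most 1.53 in the others.

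A further 7 genes have crystallin in their name but are not among the 30, some of them enzymes and some with crystallin-like domains. Crym, a thyroid hormone binding protein made in retina, was at 28.8, 66.7 and 44.0 FPKM in the antagomir libraries and at 30.5, 25.2 and 25.2 FPKM in the controls. Its log2 fold change was 0.69 (SE 0.27, adjusted p = 0.801 by limma), and it was the 1 gene of this list with an unadjusted p under 0.05. The groups overlapped, since antagomir 1 was below control 1. The quinone reductase gene Cryz lay between 3.06 and 3.82 FPKM and its relative Cryzl1 between 10.03 and 11.8 FPKM. Of the 7 genes 5 were tested, 2 higher and 3 lower, and 0 passed.

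Heat shock and gliosis genes were read beside Cryab because it is also a stress gene. Of 14 heat shock genes 13 were tested, 6 higher and 7 lower (median -0.044), and 0 passed. Hsp90aa1, Hspa8 and Hspb6 had values from 367 to 516, from 148 to 169 and from 27.5 to 37.6 FPKM. The 14 genes summed to 624 FPKM in both antagomir 1 and control 2 and to 761 FPKM, the highest sum, in control 1. Hspb1, a small heat shock protein gene, was at 4.34, 2.44 and 1.82 FPKM in the antagomir libraries and at 2.48, 7.15 and 7.43 FPKM in the controls. Among protein-coding genes outside the 30 with a mean of at least 1 FPKM and a log2 range of at least 1, its profile was the most like that of the summed lens level. Its Pearson's r over the 6 libraries was 0.935 among 246 genes ranked, followed by Fam107a at 0.919, Penk at 0.891, and Slc6a13, Pvalb, Mfrp, Gm11032 and Folr1 at 0.812 to 0.776. These values are a description over libraries that fall into high and low ones. The highest value of each of the 8 genes was between 2.33 and 11.8 times its lowest.

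Gliosis genes peaked elsewhere. Of 11 listed, 10 were tested, 7 higher and 3 lower (median 0.29), and 0 passed. The summed level of the 11 was 803 FPKM in antagomir 2, where Cryab was at 27.3 FPKM, and between 179 and 386 FPKM in the others. In control 1, which had the sum of 386 FPKM, Cryab was at its lowest, 19.9 FPKM. The metallothionein gene Mt1 was at 367 FPKM in antagomir 2 and 81.1 in control 2, Vim at 50.1 and 38.7 FPKM, and the endothelin gene Edn2 at 83.1 and 5.09 FPKM. The libraries with the highest sums, antagomir 2 and control 1, were low in lens transcript. So was antagomir 3, which had the lowest sum, 179 FPKM, close to the 185 FPKM of control 2. Mt1 alone gave 69.9 FPKM of the sum in antagomir 3 and 81.1 FPKM of that in control 2, so their order rests on it.

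Markers of neighbouring eye tissues were read in the same way, and their part in the lens values was not tested. Of 4 ciliary body and iris genes 3 were tested, 0 higher and 3 lower, and 0 passed. Their summed level was 26.5 FPKM in control 2 and between 4.89 and 10.4 FPKM in the others, with Optc, the opticin gene of the ciliary epithelium, at 17.7 FPKM in control 2 and 0.549 to 4.64 in the others. Of 12 pigment epithelium and pigment cell genes 9 were tested, 4 higher and 5 lower, and 0 passed. Their sum ran from 40.7 FPKM in control 1 to 99.1 in antagomir 1, and the melanosome gene Tyrp1 was at 6.21 FPKM in control 2 and at most 2.10 elsewhere. Ttr, Rgr and Rpe65 were highest in antagomir 1, antagomir 1 and control 3, at 68.3, 9.35 and 10.1 FPKM.

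Cornea, connective tissue and muscle genes were low. The 5 cornea genes summed to 0.721 to 2.44 FPKM and 0 of them reached the level for testing, with the corneal keratin gene Krt12 at 0.711 FPKM or less. The 6 connective tissue genes summed to 1.61 to 3.99 FPKM, the top value in control 2, and 2 were tested. The 5 muscle genes summed to 4.16 to 5.92 FPKM, with 3 tested, 2 higher and 1 lower, and the myosin light chain gene Mylpf was present in every library at 1.71 to 3.59 FPKM. Of the 15 retinal genes all were tested, 3 higher and 12 lower (median -0.040), and 0 of these lists' genes passed.

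Overlap with other genes touched few of the values above. Of the 30 genes 12 overlap another listed gene, 10 of them one on the opposite strand, and the sources used here do not say whether counting used strand. Cryba1 overlaps Nufip2 on the other strand, which held 18.6 to 22.7 FPKM in every library while Cryba1 fell to 0.0843 FPKM. Cryab overlaps the small heat shock gene Hspb2, which stayed at 0.631 FPKM or less.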

How the data were processed

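The authors deposited 1 table of FPKM values for 54532 genes with gene length and position, per the file headers. The submitters' processing notes name GRCm38 and mm10, and no aligner, counter or strand setting is given in the sources used here. The labels' protocols name a SMARTER mRNA-Seq kit. Multiplied by gene length, 100% of non-zero values became whole reads (tolerance 0.01 reads), 13727596 to 16502352 per library, and intervals rest on these reads.

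The 17453 genes with a mean of at least 0.5 FPKM entered limma 3.58.1 (R 4.3.3, mean-variance trend, two-sided, no covariates) as log2(FPKM + 1) of the deposited values, with Benjamini-Hochberg adjustment over all of them and a threshold of 0.05. The fit was tested on simulated data with normal noise and a capped spread, which does not cover genes as variable as most of the crystallins. Whether libraries came from separate animals is not in the labels, and p-values measure only the spread among libraries, which may be technical. The 30 genes, the lists and the rules were chosen with earlier results of these data known. Named genes are the 30, those among the 3 highest by mean of each list and the 8 most alike in profile. Tyrp1, Gja1 and the genes called in alternatives were named after their values were seen. Alternatives were a pseudocount of 0.1, no filter, a minimum of 2 FPKM, TPM, voom, a replicate block, other limits of the lens pattern and leaving out libraries.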

Additional observations from a re-analysis of the deposited data

How the results depend on the processing

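The median log2 fold change of the tested lens genes, -1.41, ran from -2.83 to -0.41 when single libraries were left out, and was 0.15 without antagomir 1, control 2 and control 3 together. No lens gene passed after adjustment under any setting; at an unadjusted p under 0.05 there were 7 without control 1, 1 with no filter and 0 otherwise. Over all genes, limma called 0 to 2 when single libraries were left out (Lyz2 and Mir7655 without antagomir 1, Fxyd6 without control 2), voom called 1 (Fxyd6) and the fit without those 3 libraries called 2 (Eif2s3y and Xist). Without those 3 libraries the changes of Cryaa, Cryab, Cryga and Maf turned to 0.23, 0.24, 0.10 and 0.00029. Leaving out single libraries, Cryab ran from -1.05 to 0.070, Hsf4 from -0.20 to 0.044 and Maf from -0.17 to 0.015. The lens pattern held for 19 to 21 genes when single libraries were left out, for 19 at a ratio of 20, and for 14 with 1 FPKM added. With the replicate block, 0 lens genes and 0 of all genes passed (856 of all genes at an unadjusted p under 0.05), and adjusted p of the 24 ran from 0.919 to 0.971. Same-numbered libraries did not deviate together (r of -0.19, -0.10 and -0.14). With 3 libraries per group, centred within the group, this cannot exclude that the numbers pair them. Genes under about 10 reads, Lenep, Dnase2b and Foxe3 among them, are limited by depth.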
